A study of Mus musculus with 4 samples.

Results

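Imprinted genes are read mainly from the copy inherited from 1 parent, and 10 of them were followed here in mouse liver: the noncoding RNAs Meg3, Rian and Mirg and the coding gene Dlk1 of a cluster on chromosome 12, and H19, Igf2, Igf2r, Peg3, Plagl1 and Grb10 on other chromosomes. The members were taken by name from the authors' deposited table, which held all 10 in 11 of its 25572 loci, because Peg3 fills 2 loci over the same span. The list was drawn up with the values of this comparison known, so the members' values are a description and carry no test here. Liver RNA came from C57BL/6J mice aged 8 weeks, with 2 libraries from wild-type controls (WT) and 2 labelled Ern1-LKO, each pair labelled as biological replicates. In Ern1-LKO mice the liver lacks Ern1 by label; this gene encodes the endoplasmic reticulum stress sensor IRE1α; the sources used here give neither the driver of the deletion nor the alleles of the controls.

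At an imprinted locus, methylation of a control region in the egg or the sperm marks which parental copy is read. In the chromosome 12 cluster the maternal copy makes the noncoding RNAs, with many small nucleolar RNAs and miRNAs along the same strand, and the paternal copy makes Dlk1, Rtl1 and Dio3. At the Igf2 and H19 locus on chromosome 7 the maternal copy makes H19 and the paternal copy makes Igf2. In mouse liver H19, Igf2 and Dlk1 are known as genes of fetal life that are turned down after birth.

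The table gives 1 FPKM value (fragments per kilobase of transcript, scaled to the mapped fragments) for both libraries of a genotype. The spread between mice therefore cannot be shown, and a difference may rest on a single mouse. Ern1 was at 21.4 FPKM in WT and 30.2 in the libraries labelled Ern1-LKO (q = 0.172 in the authors' deposited table), so the gene's level was not lower where it is labelled as deleted. Which part of the gene is deleted is not known here, and a value for the whole gene does not show single exons. Ern1-LKO below means the libraries labelled so. Hepatocyte markers were high in both genotypes, Apoa2 at 25757 and 24865 FPKM and the combined locus of Apoa1 and Sik3 at 11069 and 10627, and the 0 listed for Alb is an estimate that failed for too many fragments. Of 13320 loci that the authors tested, they called 365 at q under 0.05, which is 2.74%; 1.58% were called higher and 1.16% lower in the libraries labelled Ern1-LKO. Of all tested loci 47.9% lay above WT, and at an unadjusted p under 0.05 there were 764 higher and 604 lower. Differences are given below as Ern1-LKO minus WT on the log2(FPKM + 1) scale unless named otherwise, a scale that understates the change of low genes.

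The sequence before the start of Meg3 is shown because Meg3 stands at the head of the run of noncoding RNAs and has the highest level among them. The RefSeq window (build GRCm38.p6, plus strand) spans chr12:109540746-109541045, from 250 bases before the RefSeq start to 50 after, and the table's own Meg3 locus begins inside it at 109540794. Capitals mark the cyclic AMP response element TGACGTCA, the TATA box letters TATAAA and the hexamer TGCCGC that ZFP57 binds when methylated, each sought on both strands; a TATAAA on each strand overlaps to make 1 capital run.
Meg3 window: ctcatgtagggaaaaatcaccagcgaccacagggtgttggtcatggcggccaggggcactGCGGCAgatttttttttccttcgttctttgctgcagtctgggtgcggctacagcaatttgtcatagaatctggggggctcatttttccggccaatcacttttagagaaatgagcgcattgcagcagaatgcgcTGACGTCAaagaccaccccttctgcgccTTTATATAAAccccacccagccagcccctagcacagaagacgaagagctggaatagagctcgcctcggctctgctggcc
The element TGACGTCA begins 57 bases before the start and the forward TATAAA begins 25 bases before it, and the hexamer lies on the minus strand from 190 bases before it. Of 32851 such windows of 300 bases in the mouse genome, 1.79% hold TGACGTCA, 13.6% TATAAA and 11.6% TGCCGC. Windows were found for 9 of the 10 members. TGACGTCA was also in the Peg3 window, where it begins 178 bases before the start, and TGCCGC in windows of Igf2, Plagl1 and Grb10. The windows of Rian, Mirg and Dlk1 held none of these letters, nor did any member's window hold those of the unfolded protein response element TGACGTGG (0.676% of all windows) or of the endoplasmic reticulum stress element (0.119%). The Meg3 window shown has 13 CpG and the Rian window 0, beside a median of 7 over all windows. RefSeq has a second Meg3 window, at chr12:109545148-109545447, with 1 CpG and none of these letters.

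The Meg3 and Mirg loci of the table also list miRNA hairpins, which are shown because their reads, if any, are pooled with those of the host. The mature forms in RefSeq (GRCm38.p6, plus strand) follow, with the seed, bases 2 to 8, in capitals. The Meg3 locus lists Mir1906-1 (mature form at chr12:109544588-109544609) and Mir770 (chr12:109563710-109563765 over both arms).
miR-1906: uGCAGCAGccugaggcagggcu
miR-770-5p: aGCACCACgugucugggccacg
miR-770-3p: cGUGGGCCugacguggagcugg
The Mirg locus lists Mir409, Mir412, Mir369 and Mir410, whose mature forms lie between chr12:109743172 and 109743784.
miR-409-5p: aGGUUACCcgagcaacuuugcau
miR-409-3p: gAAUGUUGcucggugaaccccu
miR-412-5p: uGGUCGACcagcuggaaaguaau
miR-412-3p: uUCACCUGguccacuagccg
miR-369-5p: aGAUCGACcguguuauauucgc
miR-369-3p: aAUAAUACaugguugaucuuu
miR-410-5p: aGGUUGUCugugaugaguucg
miR-410-3p: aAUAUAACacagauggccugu
From Dlk1 to Dio3 the RefSeq table holds 114 mature miRNAs, 106 of them on the plus strand, with 104 distinct seeds. A seed was shared by more than 1 miRNA gene of the cluster in 10 cases, each time by 2 genes. The seed of miR-410-5p is that of miR-494-5p, and 3 further shared seeds are shown with their carriers.
miR-494-5p: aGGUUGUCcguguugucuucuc
miR-379-5p: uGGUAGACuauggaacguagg
miR-1193-5p: uGGUAGACcggugacguaca
miR-379-3p: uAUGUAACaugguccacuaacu
miR-411-3p: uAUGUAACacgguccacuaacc
miR-1197-5p: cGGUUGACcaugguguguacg
miR-758-5p: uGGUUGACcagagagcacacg
The other 51 miRNA rows between Dlk1 and Mirg were each listed at 0 FPKM in both genotypes. Libraries of this kind lose RNAs as short as mature miRNAs, so these rows do not measure them.

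The maternally expressed noncoding RNAs of chromosome 12 were higher in the libraries labelled Ern1-LKO. Meg3 (maternally expressed gene 3, a long intergenic RNA held mostly in the nucleus), at chr12:109540794-109571731 on mm10 and combined in the table with Mir1906-1 and Mir770, was at 1.36 FPKM in WT and 18.3 FPKM in Ern1-LKO, a ratio of 13.5. Rian, which hosts small nucleolar RNAs and is combined with AF357359 at chr12:109603945-109661711, was at 0.26 and 4.08 FPKM, a ratio of 15.6. Mirg, which hosts miRNAs, at chr12:109734981-109749457, was at 0.015 and 0.78 FPKM. All 3 lay on the same side, and their order Meg3, Rian, Mirg was the same in both genotypes. Summed over the 3 loci the level was 1.63 FPKM in WT and 23.2 in Ern1-LKO.

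Among these noncoding RNAs, only Meg3 has an implied SE that its deposited p does not contradict. For Meg3 the log2 fold change in the authors' deposited table is 3.75, and its test statistic implies an SE of 0.47. Its q, 0.00343, is the smallest in the table, a value shared with other loci such as Asns and Acta2. The p of Meg3 is likewise the smallest there and only an upper limit, so that SE could not be checked fully. For Rian the log2 fold change there is 3.96 (q = 0.0364 in the authors' deposited table), and for Mirg 5.72 (q = 0.889). The SE implied for Rian (4.25) and for Mirg (62.6) does not match the deposited p of either, so no error of their size can be given. The authors thus called 2 of the 8 member loci they tested, both higher, beside 1.58% of all tested loci in that direction, and nothing is read from that count, because the members were chosen on this contrast. Past a 2-fold difference on the log2(FPKM + 1) scale lay the same 2 loci, beside 0.728% of all tested loci in either direction and 0.503% higher.

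Set against other liver transcripts, Meg3 moved from the lower end of the range to its upper part. In WT 8.80% of the 10931 expressed loci, those of at least 1 FPKM in a genotype, lay below Meg3, and in Ern1-LKO 72.4% did. For Rian the shares were 0.137% and 33.6%. Rian is in that set only through its Ern1-LKO value, so its WT share is low by construction and nothing is read from its rise. Meg3 in WT also lay close to the lower limit of the set. Rian stood at 19.3% of the Meg3 level in WT and at 22.3% in Ern1-LKO, on the per-length FPKM scale. Mirg stood at 1.09% and 4.25%. The Mirg value in WT is close to the least the table can show: among 1217 short chemoreceptor loci of a single exon, the lowest value above 0 times length was 0.0253 FPKM × kb in WT and 0.0259 in Ern1-LKO, and Mirg in WT came to 0.0563 over its longest transcript.

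**Figure D1:**
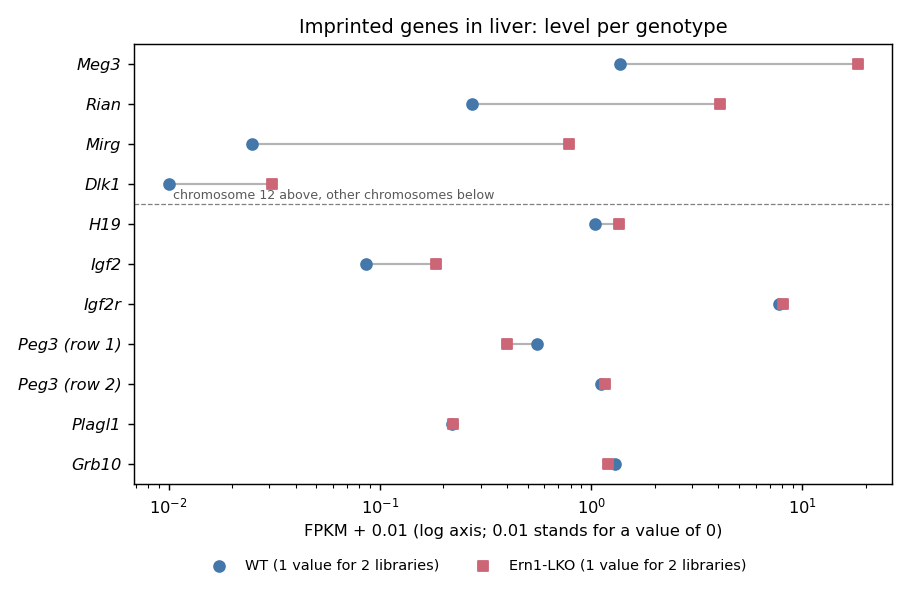
FPKM of the 11 loci that hold the 10 members, on a log axis with 0.01 added, 1 point per genotype (each the authors' value for 2 libraries, so no error bar can be drawn). Meg3, at 1.36 and 18.3 FPKM, Rian and Mirg are far apart between genotypes, and Igf2r, at 7.77 and 8.11, is not.

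The paternally expressed coding genes of the same cluster were at or near 0 in both genotypes. Dlk1, a membrane protein of precursor cells with repeats like those of epidermal growth factor, was listed at 0 FPKM in WT and at 0.021 in Ern1-LKO, at chr12:109452823-109463336, and was too low for the authors to test. Rtl1, a gene derived from a retrotransposon, was listed at 0 in both. Dio3, the deiodinase that inactivates thyroid hormone, was listed at 0 and 0.022 FPKM. Dio3os, a noncoding RNA made from the strand opposite Dio3 and combined with Mir1247, was at 0.12 and 0.45 FPKM (q = 0.75 in the authors' deposited table).

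Loci around the Dlk1 to Mirg span were not called. Within 1 Mb of the Dlk1 to Mirg span, which is 297 kb long, the table holds 86 loci. Inside the span 3 loci were tested, and Meg3 and Rian were called. Of the 12 loci inside the span that are not miRNAs alone, 7 were listed at 0 in both genotypes, Rtl1 and 6 small nucleolar RNA loci. Outside the span none of 15 tested loci was called at the authors' q under 0.05. Over all tested loci 2.74% were, a share that gives few calls among so few loci. Of the 15, 2 had an unadjusted p under 0.05 (Slc25a29 and Hsp90aa1, both lower). Above WT lay 6 of them (47.9% of all tested loci did), and their median difference was -0.02. Their differences ran from -0.48 at Slc25a29 (1.60 and 0.87 FPKM) to 0.37 at Dio3os.

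The nearest named loci before Dlk1 were Wdr25, at 1.12 and 1.09 FPKM, and Begain, listed at 0 in WT and 0.019 in Ern1-LKO. After Mirg came 3110009F21Rik, at 0.073 FPKM in WT and listed at 0 in Ern1-LKO, and then Dio3os. Slc25a47, a mitochondrial carrier made mainly in liver, is another locus on the Dlk1 side, at 495 and 488 FPKM. None of these 5 was near the difference seen at Meg3 on the log2(FPKM + 1) scale (3.03). Dio3os lies outside the span but beside Dio3, a gene of the same cluster. Its log2 fold change in the authors' deposited table was 1.88, from 0.12 and 0.45 FPKM (q = 0.75 there).

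**Figure D2:**
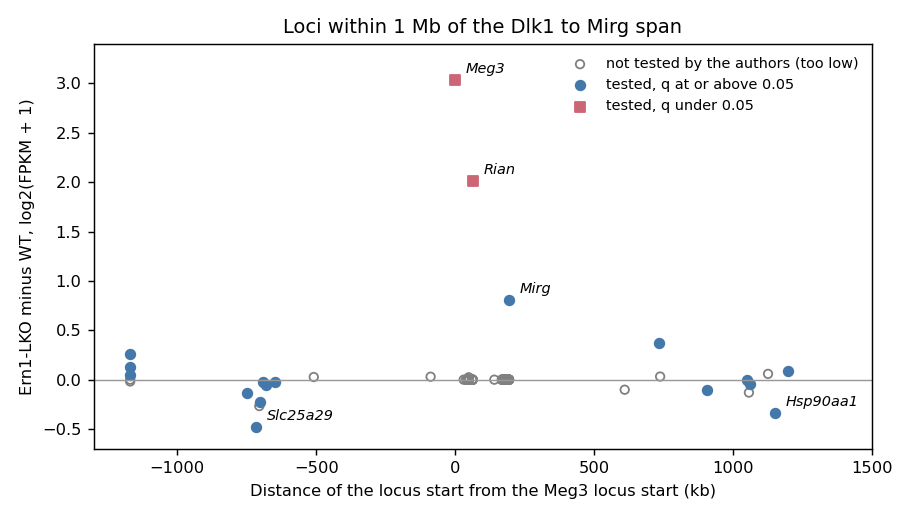
Difference between genotypes (Ern1-LKO minus WT, log2(FPKM + 1)) for the 86 loci within 1 Mb of the Dlk1 to Mirg span, against the distance of each locus start from that of Meg3 in kb, 1 point per locus. Meg3 (3.03), Rian (2.01) and Mirg (0.81) stand above loci that lie between -0.48 and 0.37.

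Imprinted members on other chromosomes differed little. H19, a long noncoding RNA combined with Mir675 at chr7:142575530-142578146, was at 1.03 FPKM in WT and 1.34 in Ern1-LKO (difference 0.20, q = 0.988 in the authors' deposited table). Igf2, the fetal growth factor next to it at chr7:142650768-142670356, was at 0.076 and 0.18 FPKM and too low for the authors to test. Igf2r, the receptor that takes IGF2 to the lysosome, was at 7.77 and 8.11 FPKM, a log2 fold change of 0.06 (implied SE 0.17) in the authors' deposited table. The span listed there for Igf2r, chr17:12682406-12868143, is also listed for Airn and runs past the GENCODE end of Igf2r at 12769664. Igf2r was the member of highest level in WT.

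Grb10, an adaptor that restrains insulin and growth factor receptors, was at 1.29 and 1.19 FPKM at chr11:11930335-12037420, a log2 fold change of -0.12 (implied SE 0.22) in the authors' deposited table. Peg3, a zinc finger protein, fills 2 loci over chr7:6703896-6730438, the first at 0.54 and 0.39 FPKM and the second at 1.11 and 1.16; the table does not say how they differ. Their log2 fold changes in the authors' deposited table were -0.48 (implied SE 0.78) and 0.06 (implied SE 0.27). Plagl1, a zinc finger factor that binds other imprinted loci, was at 0.21 FPKM in both genotypes at chr10:13090788-13131695 and was too low to test.

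Side by side, the median difference was 2.01 over the 3 chromosome 12 noncoding RNAs and 0.03 over the 7 loci elsewhere, a gap of 1.98. No test of that gap was run, because both sets were named with their values known. The lowest of the chromosome 12 noncoding RNAs (Mirg, 0.81) lay above the highest locus elsewhere (H19, 0.20). With a pseudocount of 0.1 in place of 1 the gap was 3.47.

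A wider list of 71 imprinted genes was drawn up to place the members. Of these, 70 were in the table at 70 loci, of which 42 were tested by the authors and 28 were too low. Beside the 2.74% of all tested loci called in either direction, 3 were called: Meg3 and Rian higher and H13 lower. Over the 42 loci the median difference was 0.03, against -0.01 over all tested loci, and 24 lay above WT. Among 25 tested loci read mainly from the maternal copy 14 lay above WT and 3 were called. Of these 3, Meg3 and Rian were chosen on this contrast, and H13 was moved there from the paternal list after its value was seen. Nothing is therefore read from the split of calls by parental copy. Among 17 read mainly from the paternal copy 10 lay above WT and none was called, with 2 at an unadjusted p under 0.05. Many of these genes are imprinted only in brain or placenta, so the list does not say which copy was read in these livers.

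H13 encodes signal peptide peptidase, a protease of the endoplasmic reticulum membrane, and is biased to the maternal copy in mouse brain. It fell from 42.5 FPKM in WT to 22.04 in Ern1-LKO. Its log2 fold change in the authors' deposited table is -0.95 (implied SE 0.25, q = 0.00637). Mcts2, a paternally expressed gene inside an H13 intron, shares its locus span and was at 8.40 and 5.42 FPKM, with q = 0.999 in the authors' deposited table. Without the 10 members, 1 of 34 tested imprinted loci was called, H13, beside 2.74% of all tested loci. The median difference was 0.003.

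The imprinted genes outside the members with the highest levels were not called. Slc38a4, an amino acid transporter of hepatocytes read from the paternal copy, was at 321 FPKM in WT and 362 in Ern1-LKO. Gnas, the stimulatory G protein alpha subunit, was at 256 and 226, and the combined locus of Cd81 and Tssc4, of which only Tssc4 is on the list, was at 233 and 214.5. Slc22a18 was at 84.3 and 102 FPKM, and Commd1 at 46.8 and 51.6. Jade1 was at 9.99 and 8.62. The combined locus of Snrpn and Snurf, which make a splicing protein and a short peptide from the paternal copy, was at 6.02 and 9.06 FPKM (q = 0.076 in the authors' deposited table). Ndn (0.33 and 0.75 FPKM), Dcn (41.7 and 56.6) and Ppp1r9a (1.90 and 2.74) also lay above WT without a call, and Dcn is on the fibroblast list below as well.

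**Figure D3:**
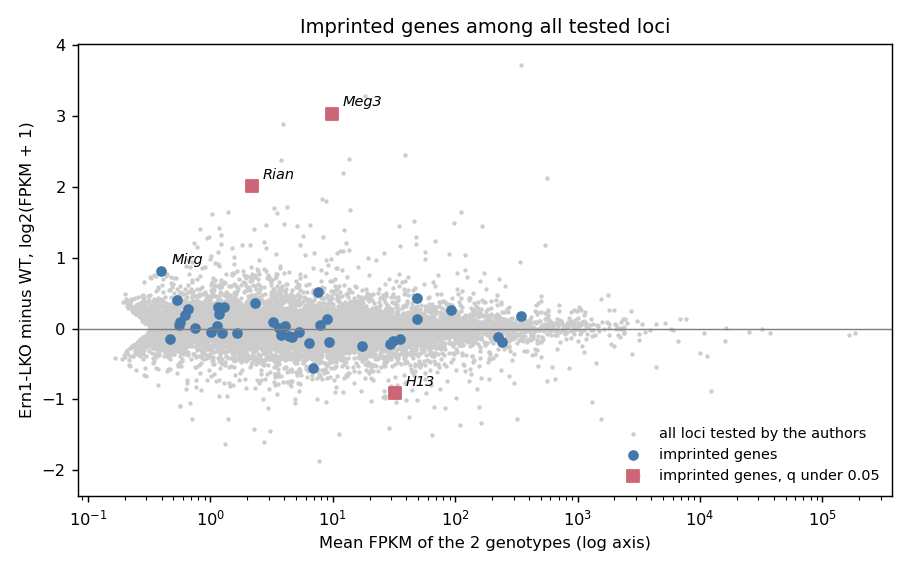
Difference between genotypes (Ern1-LKO minus WT, log2(FPKM + 1)) against the mean FPKM of both genotypes on a log axis, for the 13320 tested loci in grey and the 42 tested imprinted loci in colour. Meg3 and Rian lie above the cloud at 3.03 and 2.01, H13 lies at -0.92, and the other imprinted loci sit within it apart from Mirg at its low edge.

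Genes that keep imprints were followed as a list of 29, with 21 loci tested. None was called at the authors' q under 0.05. Over all tested loci 2.74% were, a share that gives few calls among so few loci. None of the 21 had an unadjusted p under 0.05. Above WT lay 6 of them (47.9% of all tested loci did), and differences ran from -0.14 to 0.07 with a median of -0.04. Trim28, the corepressor that ZFP57 recruits to methylated control regions, was at 22.5 and 20.9 FPKM, and Mbd3, a subunit of a chromatin remodelling complex, at 33.8 and 33.5. Zfp445, another zinc finger protein that guards imprints, was at 19.1 and 20.0, and the maintenance methyltransferase Dnmt1 at 2.27 and 2.42. Ctcf, the insulator protein that binds the control region of H19, was at 7.96 and 7.82. Zfp57 itself was too low to test, at 0.23 and 0.18 FPKM.

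Fetal liver genes that are turned down after birth, among them H19, Igf2, Dlk1, Peg3, Mest and Cdkn1c, were taken with their regulators as a list of 20 genes. They filled 22 loci, of which 13 were tested. None was called, beside 2.74% of all tested loci, a share that gives few calls among so few. Of the 13, 1 had an unadjusted p under 0.05 (Igf2bp2, lower, at 0.36 and 0.19 FPKM), and the median difference was 0.03. Afp, the fetal serum protein, was at 1.19 and 1.44 FPKM, and Gpc3, a cell surface proteoglycan, at 0.56 and 0.72. Zhx2 and Zbtb20, which repress Afp in adult mouse liver, were at 4.90 and 5.21 and at 5.71 and 5.20 FPKM, the last for the higher of 2 Zbtb20 loci.

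In the insulin-like growth factor axis none of 17 tested loci of 22 was called (2.74% of all tested loci were). Of the 17, 3 had an unadjusted p under 0.05, all higher (Igfbp1, Igfbp5 and Igfbp6, beside 764 of 13320 loci in that direction). Above WT lay 14 (47.9% of all tested loci did), and the median difference was 0.11. Igfbp4 and Igfbp2, binding proteins, were at 718 and 761 and at 535 and 470 FPKM. Igf1, the growth factor of adult liver, was at 132 and 142. Igfbp1 was at 117 and 165 FPKM with q = 0.0879 in the authors' deposited table.

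Among expressed loci of a single gene, those whose log2 fold change in the authors' deposited table came nearest to that of Meg3, over 2 genotype values only, were Actg2 (3.72), Asns (3.69), Fam107a (3.62), Retnla (3.98) and Clec3b (3.51). Rian, whose locus is combined and so stood outside this choice, has 3.96 there, nearer to Meg3 than Retnla and Clec3b. Actg2, a smooth muscle actin, was at 0.13 and 1.74 FPKM and Asns, which makes asparagine, at 0.54 and 6.97, both called. Fam107a was at 0.15 and 1.82 and called, while Retnla (0.17 and 2.64) and Clec3b (0.19 and 2.17) were not. Among 10926 expressed loci with a finite value, 6 had a log2 fold change at or above that of Meg3: Meg3, Rian, Retnla, Adipoq, Cfd and 1 locus with no gene name. All of them but Meg3 counted as expressed only through their Ern1-LKO value, as did the single-gene loci named above as nearest. The count therefore depends on that filter. Over all tested loci, without it, Meg3 ranked 15 from the top by log2 fold change.

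Markers of several cell types other than hepatocytes lay above WT, as Meg3 did, and their part in the result was not tested. In bulk tissue, a change in the number of cells of a type and a change in RNA per cell cannot be told apart. Over all tested loci 47.9% lay above WT, 2.74% were called and the median difference was -0.01, and the counts of each marker list are set beside these shares. Smooth muscle genes lay above WT at 9 of 9 tested loci of 10, with 3 called, a median difference of 0.97 and a summed level of 24.7 FPKM in WT and 44.8 in Ern1-LKO. Acta2, the smooth muscle actin of vessels, rose from 1.21 to 5.86 FPKM, Myh11 rose from 0.38 to 1.93, and Actg2 rose as given above.

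Adipocyte genes lay above WT at 8 of 9 tested loci of 10, and 1 was called: Retn had 0 FPKM listed for WT and 2.06 for Ern1-LKO. Their median difference was 0.49, and their summed level, which Car3 dominates, was 1849 and 2232 FPKM. Adipoq, the fat cell hormone, was at 0.046 and 1.42 FPKM, Cfd at 0.17 and 7.66, and Plin1, the coat protein of fat cell droplets, at 0.0067 and 0.64, none of them called. Summed over Adipoq, Cfd, Retn and Plin1, which were picked after their values were seen, the level was 0.22 FPKM in WT and 11.8 in Ern1-LKO. Other genes of the list moved less: Cidec was at 1.78 and 2.76 FPKM, Fabp4 at 17.5 and 24.9, and Pparg, lower, at 3.65 and 3.17. The ratios of Adipoq (30.6) and Cfd (45.5) were larger than that of Meg3. They rest on WT values of 0.046 and 0.17 FPKM, and the implied SE of neither gene matches its deposited p.

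Stellate cell and fibroblast genes lay above WT at 15 of 16 tested loci (47.9% of all tested loci did), with 5 called (2.74% of all), a median difference of 0.36 and a summed level of 150 and 201 FPKM. Dpt, a matrix protein of fibroblasts, rose from 2.93 to 7.91 FPKM, Col1a1 from 1.38 to 3.66 and Col3a1 from 4.62 to 9.18; Lrat, the retinol store enzyme of quiescent stellate cells, was at 2.26 and 2.47 and was not called. Endothelial genes lay above WT at 14 of 15 loci with a median difference of 0.15, a summed level of 155 and 167 FPKM and 1 call, Vwf (0.85 and 1.46 FPKM). Kupffer cell genes lay above WT at 11 of 12 loci with none called, 2 at an unadjusted p under 0.05 and a summed level of 419 and 451 FPKM; the combined locus of Cd68 and Eif4a1 was at 163 and 150.02 FPKM and Lyz2 at 41.4 and 49.6.

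Bile duct genes had 2 calls among 9 tested loci, Tff3 (11.3 and 66.7 FPKM) and Onecut1 (6.06 and 21.4), and a summed level of 64.1 and 128 FPKM, while Krt7, a keratin of duct cells, was at 0.55 and 0.57. Islet genes were at the floor: all 10 were too low to test, 7 of them listed at 0 in both genotypes, Ins1 and Gcg among them, Ins2, 0 in WT, was at 0.10 FPKM in Ern1-LKO, and Scg2 was at 0.0064 and 0.026. Pancreatic acinar genes ran the other way, with 4 of 8 tested loci called lower, among them Try4, Pnlip and Prss2 at 0.74, 0.60 and 0.58 FPKM in WT and listed at 0 in Ern1-LKO; their summed level was 54.6 and 60.3 FPKM, most of it Cela1 (46.4 and 58.5). Skeletal muscle genes lay above WT at 10 of 10 loci with none called or at an unadjusted p under 0.05, a summed level of 101 and 114 FPKM, Acta1 at 17.99 and 20.5 and Tnnc2 at 18.02 and 18.7. Of 6 tested proliferation genes none was called and 1 had an unadjusted p under 0.05; their list summed to 25.9 and 27.6 FPKM, with Pcna at 21.4 and 22.6 and Mcm2 at 0.97 and 1.16. Hepatocyte genes had no call and no unadjusted p under 0.05 among 11 tested loci, with a median difference of -0.04 and a summed level of 62366 and 61049 FPKM.

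**Figure D4:**
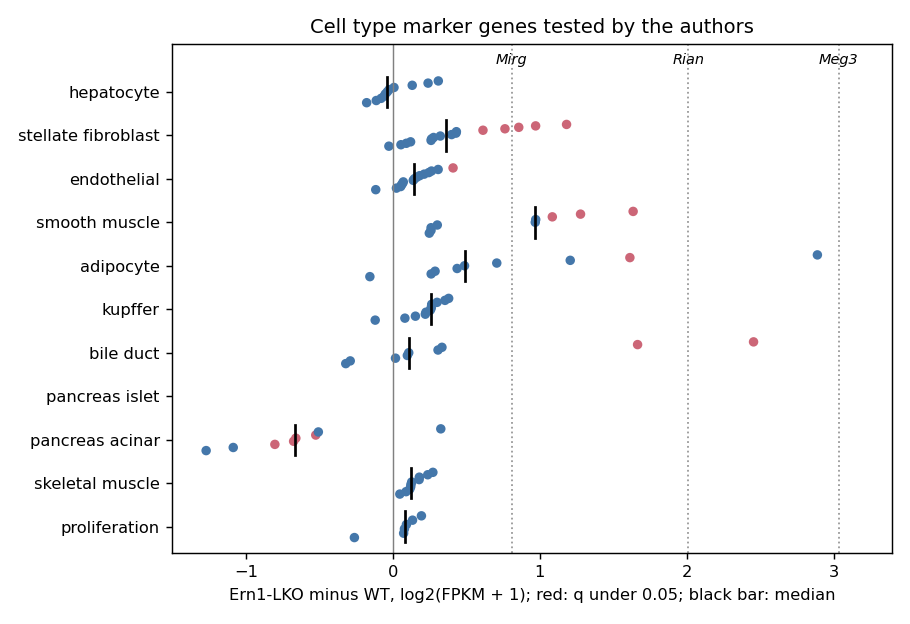
Difference between genotypes (Ern1-LKO minus WT, log2(FPKM + 1)) for each tested marker gene of 11 cell type lists, 1 point per locus, in red where the authors' q is under 0.05, with a black bar at each median; the islet list has no tested gene. Dotted lines mark Meg3 (3.03), Rian (2.01) and Mirg (0.81), and the smooth muscle median is at 0.97, above those of the other lists.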

How the data were processed

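Per the labels' protocols, total RNA from frozen liver was taken with RNAiso reagent and made into libraries with a NEBNext Ultra kit; no source used here says whether strand was kept, so reads of overlapping genes on opposite strands may be mixed. The submitters' processing notes name the build mm10 and, without roles, Cufflinks 2.2.1, TopHat2 2.0.14, FastQC 0.11.3 and bcl2fastq; no source used here names the annotation. The authors' deposited table has 1 FPKM value per genotype and locus. The authors' log2 fold change, p-value, q-value and test statistic, which is a score with a sign, stand beside it. It holds 25572 loci, of which 13320 were tested, 12238 were too low, 13 had too many fragments and 1 failed; 1 further line held no values.

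From these, the difference of log2(FPKM + 1) was computed, and a locus was called at the authors' q under 0.05. Benjamini-Hochberg adjustment of the deposited p gave the same 365 calls. With no value per library, no test over mice was run. The implied SE is the log2 fold change divided by the test statistic, both without sign, and multiplied by ln 2. It was taken to match where its z lay within 0.8 to 1.25 times that of the deposited p, or above it at the smallest p. No match could be made where the fold change was not finite or the z of the deposited p was very small. Depth is unknown, so no counting interval is given. Starts had 1 added: 6502 single genes then matched GENCODE M21 exactly.

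The members and the 16 gene lists were chosen with earlier results of these data known, and H13 was moved from the paternal to the maternal list after its value was seen. Genes were named by rule: the members, called loci and nearest neighbours of the cluster, up to 3 called genes per list and direction or else the 2 of highest level, the 5 highest imprinted non-members, and the 5 tested loci of a single gene and at least 1 FPKM in a genotype nearest Meg3 in log2 fold change, which leaves out combined loci such as that of Rian. Other genes were chosen after their values were seen. Promoter and miRNA sequences are RefSeq's (GRCm38.p6), from tables matched by symbol. The adjustment step was tested on simulated data. Tables were computed with pandas 2.3.3 and scipy 1.17.1 on numpy 2.4.6, and plots drawn with matplotlib 3.10.9, under Python 3.11.15.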

Additional observations from a re-analysis of the deposited data

How the results depend on the processing

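No paired analysis was possible because the table carries 1 value per genotype; for the same reason no replicate could be left out. Restricting the imprinted list to loci of 1 gene left 1 call, as did leaving out the 10 members, in place of 3; these settings, and leaving out Mirg, were chosen after seeing the data. At q under 0.01 the chromosome 12 neighbourhood had 1 call, Meg3, in place of 2. The gap between the chromosome 12 noncoding RNAs and the members elsewhere was 3.47 with a pseudocount of 0.1 in place of 1.98, and it lay between 1.98 and 2.54 under the other pseudocount, centring (a shift of -0.02), an FPKM filter at 1 and without Mirg. The other counts moved by no more than 1.5 times under these settings, except that the 4 pancreatic acinar calls fell to 0 among loci of at least 1 FPKM. The cause of these shifts was not tested. The number of member loci past a 2-fold difference was 2, and 3 with a pseudocount of 0.1 or 0.5, when Mirg was added (0.728% of all tested loci passed 2-fold with a pseudocount of 1).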
